A study of Mus musculus with 4 samples.

Results

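Windows of the mouse genome with few covered cytosine positions in the deposited window counts were compared between netrin-1-expressing and control embryonic stem cells. The genome had been divided into 27268 windows of 100 kb. Of these, 23490 lay on chromosomes 1 to 19 and held at least 10 cytosine calls in each of the 4 libraries. The windows described here are the 3809 of them, or 16.2%, whose number of covered positions averaged 3 to 20 over the 4 libraries. They are called sparse windows here, a name that refers to the window counts only. In 543 of the 617 that contain a whole CpG island, the islands alone list more covered positions than the window. Of the other 19681 autosomal windows, 19648 had more positions and 33 had fewer. A further 170 windows were in the range of positions but under the minimum of calls. The windows were thus chosen by 2 measured values, covered positions and total calls, so both are given as descriptions without a test. Methylated calls were not used.

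Both groups were mouse embryonic stem cells of the CGR8 line, grown in serum with LIF. The netrin-1 group (2 libraries) carried a stably transfected ppy-cagg-ires-puro vector encoding a netrin-1 transgene. The control group (2 libraries) carried the empty vector, so both groups had been through the same kind of transfection. The labels do not say whether a group was 1 clone or a pool, or whether its replicates were separate cultures. The p-values therefore measure the spread between these libraries, which may be technical. The comparison asks whether exogenous netrin-1, a secreted guidance protein that signals through DCC, neogenin and UNC5 receptors, goes with a different DNA methylation profile.

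In mammals DNA methylation sits mostly on the cytosine of CpG dinucleotides. Methylated CpGs are lost over evolutionary time, so most of the genome is poor in CpG and methylated, while CpG islands, often at promoters, are CpG-rich and mostly unmethylated. RRBS cuts DNA with MspI at CCGG and keeps short fragments. A region with few neighbouring CCGG sites therefore yields few covered positions. Mouse embryonic stem cells in serum keep a methylated genome that is uneven between regions and between cells.

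The start sites inside sparse windows had CpG-poor promoters more often than those elsewhere. RefSeq promoter sequences (GRCm38.p6, 250 bases before to 50 after a start) were matched to windows by position, giving 2263 promoters of 1980 genes in sparse windows and 28869 promoters in the other autosomal windows. The median promoter had 3 CpG in sparse windows, against 8 in the others. The MspI site CCGG, a palindrome, was present in 38.2% of promoters in sparse windows, against 54.8% in the others, and 11.2% against 4.71% had no CpG at all. Mean GC content was 49.3%, against 54.4%. Only 31.8% of promoters in sparse windows had 10 or more CpG, against 45.02% of the others.

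The promoters of 4 genes in sparse windows called lower in netrin-1 cells show both kinds of start site, with every CpG in capitals. The first pair is CpG-poor. Olfr1301 encodes an olfactory receptor and Aldh1a1 a retinaldehyde dehydrogenase that makes retinoic acid. The second pair starts in a CpG island. Grik2 encodes a kainate-type glutamate receptor subunit and Trpm3 a cation channel.
Olfr1301: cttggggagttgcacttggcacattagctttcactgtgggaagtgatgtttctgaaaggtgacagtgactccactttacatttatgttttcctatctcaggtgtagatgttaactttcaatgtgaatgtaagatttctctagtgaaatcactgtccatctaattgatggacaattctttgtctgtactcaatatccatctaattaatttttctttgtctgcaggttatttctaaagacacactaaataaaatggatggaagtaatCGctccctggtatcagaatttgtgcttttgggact
Aldh1a1: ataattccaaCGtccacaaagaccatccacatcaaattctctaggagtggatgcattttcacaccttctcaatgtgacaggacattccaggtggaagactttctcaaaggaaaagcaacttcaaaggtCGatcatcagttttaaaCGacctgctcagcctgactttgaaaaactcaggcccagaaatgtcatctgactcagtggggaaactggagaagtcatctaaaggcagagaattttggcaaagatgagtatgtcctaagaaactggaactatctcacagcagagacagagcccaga
Grik2: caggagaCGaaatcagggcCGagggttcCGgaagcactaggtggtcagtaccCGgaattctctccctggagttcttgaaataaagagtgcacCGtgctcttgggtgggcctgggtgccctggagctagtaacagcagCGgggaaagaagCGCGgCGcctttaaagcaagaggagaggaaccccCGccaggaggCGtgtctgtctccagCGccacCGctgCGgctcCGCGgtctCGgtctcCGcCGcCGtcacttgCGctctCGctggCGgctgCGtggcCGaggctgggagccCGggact
Trpm3: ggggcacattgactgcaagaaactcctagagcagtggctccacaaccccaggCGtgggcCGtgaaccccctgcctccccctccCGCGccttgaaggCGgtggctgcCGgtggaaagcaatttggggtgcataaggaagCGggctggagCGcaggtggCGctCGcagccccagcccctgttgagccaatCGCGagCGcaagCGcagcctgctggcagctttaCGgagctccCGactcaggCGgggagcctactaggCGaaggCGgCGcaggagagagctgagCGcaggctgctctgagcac
The Olfr1301 sequence (chr2:111754001-111754300, plus strand) has 1 CpG and no CCGG, and the Aldh1a1 sequence (chr19:20492333-20492632, plus strand) has 3 CpG and no CCGG. The Grik2 sequence (chr10:49788705-49789004, minus strand) has 26 CpG and 3 CCGG. The Trpm3 sequence (chr19:22138796-22139095, plus strand) has 21 CpG and 1 CCGG. In the deposited gene table, which scores a stretch to either side of a start, the Olfr1301 and Aldh1a1 promoters had 0 calls in every library. The Grik2 promoter was at 1.64% and 0.169% in the netrin-1 libraries, against 0.609% and 0.499% in the controls. The Trpm3 promoter was at 0% in both netrin-1 libraries, against 0.606% and 2.36% in the controls, on 47 to 165 calls per library. Levels of the whole windows were higher. The Grik2 window, with 14.5 covered positions, was at 19.2% and 19.7% in netrin-1 cells, against 31.8% and 39.3% in control cells. The Trpm3 window, with 12.75 positions, was at 35.9% and 38.3%, against 58.4% and 57.2%. The Aldh1a1 window, with 19.75 positions, was at 15.5% and 12.9%, against 28.9% and 26.4%. In each of these windows both netrin-1 libraries lay below both controls, while the island promoters inside them were almost unmethylated in all 4 libraries.

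Sparse windows held 892722 and 1199434 calls in the netrin-1 libraries and 795144 and 1050528 in the controls, which is 2.69% to 2.84% of the calls in the table. The median sparse window had 172 and 241 calls in netrin-1 libraries, against 153 and 209 in controls, with 17.3 to 24.1 calls per covered position. Few windows lay at an extreme. Netrin-1 libraries had 21 and 12 sparse windows at 0%, against 12 and 10 in controls, and 0 and 1 at 100%, against 2 and 0. Scaled to the autosomal calls of each library, coverage of sparse windows in netrin-1 cells was 0.956 times that in controls, against 1.001 in the other windows.

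Methylation of the sparse windows was lower in netrin-1 cells. The unweighted mean level over the 3809 windows was 32.39% and 32.24% in the netrin-1 libraries, against 37.13% and 39.50% in the controls. The group means were 32.3% ± 0.106 and 38.3% ± 1.68 (SD, n = 2 each), a difference of -6.00 percentage points or -15.7% of the control level. The higher netrin-1 library lay 4.74 points below the lower control, a gap wider than the spread within either group. A two-sided exact permutation test over the 4 libraries gave p = 0.333. With 2 libraries a group no smaller value is possible, so no permutation test of a mean level in this study can reach 0.05.

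The difference was greater in sparse windows than in the other autosomal windows. The other windows averaged 35.8% and 34.6% in netrin-1 libraries, against 38.0% and 39.4% in controls, a difference of -3.47 points or -8.98% of the control level. Sparse windows thus lay below the others by 3.42 and 2.37 points in the netrin-1 libraries, whereas in the controls the same contrast was -0.83 and 0.10 points. This contrast did not overlap between groups and differed by -2.53 points between them, with an exact two-sided permutation p of 0.333. In control cells, sparse and other windows had nearly the same mean level, 38.3% and 38.7%.

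**Figure D1:**
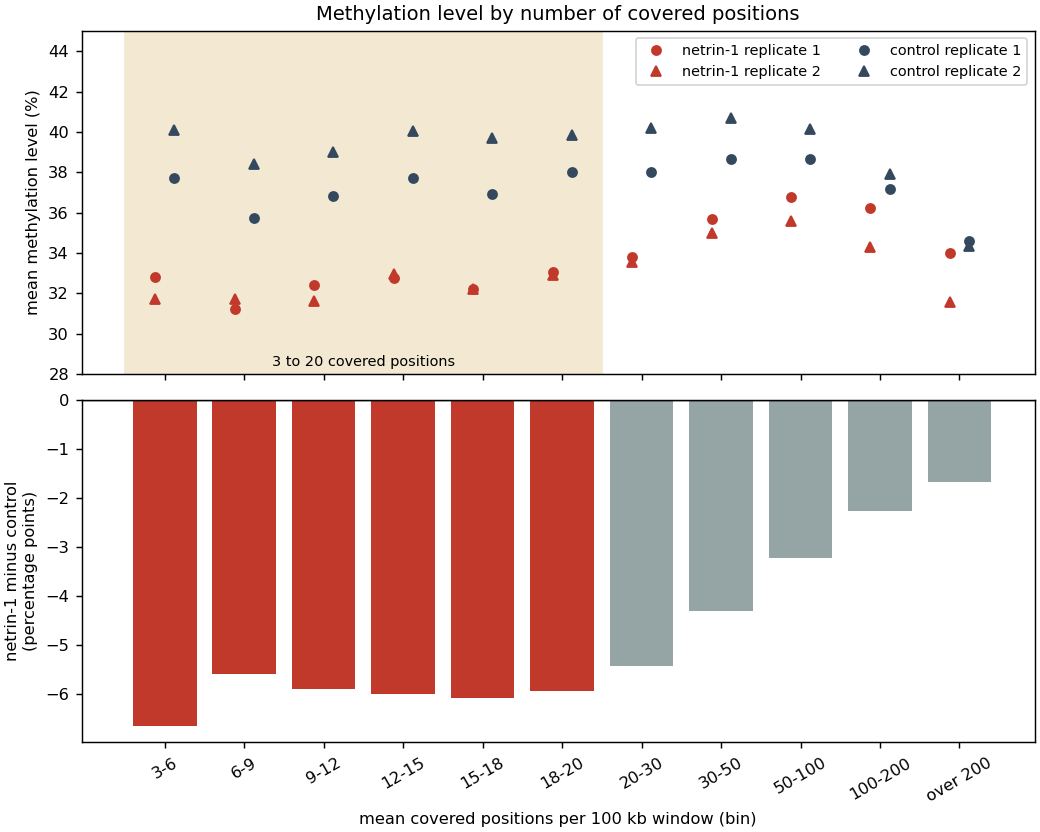
Mean methylation level of autosomal windows in each library (top, percent) and netrin-1 minus control (bottom, percentage points) by the mean number of covered positions per window. Shading and red bars mark the range of 3 to 20 positions; differences in that range lie between -6.67 and -5.60 points and shrink in the denser bins.

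Within the sparse range the number of positions made little difference. The mean level differed by -6.67 points in the 367 windows of 3 to 6 positions, by -5.60 points at 6 to 9, by -5.92 points at 9 to 12, by -6.02 points at 12 to 15, by -6.10 points at 15 to 18 and by -5.94 points at 18 to 20. Beyond 20 positions the difference shrank with each bin, to -5.43 points at 20 to 30 positions, -4.32 points at 30 to 50, -3.24 points at 50 to 100, -2.27 points at 100 to 200 and -1.69 points above 200. The 33 windows with fewer than 3 positions differed by -1.18 points with overlapping groups. At the lower limit of the range, a window with 3 positions stood at 32.9% and 29.7% in netrin-1 libraries, against 23.1% and 39.6% in controls. A window just outside, with 2.75 positions, stood at 36.9% and 22.4%, against 30.2% and 37.8%. At the upper limit a window with 20 positions stood at 39.2% and 41.9%, against 45.6% and 45.2%, and one with 20.25 positions stood at 20.4% and 33.8%, against 33.6% and 35.4%. Of these 4 windows, the groups were apart in the one with 20 positions and overlapped in the other 3.

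The lower level was widespread among sparse windows rather than held by a few. The mean level was lower in netrin-1 cells in 3141 of the 3809 windows (82.5%), against 81% over the whole table. Both netrin-1 libraries lay below both controls in 1897 (49.8%), against 47.1% in the whole table. Both lay above both controls in 162 (4.25%), against 4.4%. These shares were close to those of the whole table. The sizes were not. A difference of -10 points or beyond was found in 1002 sparse windows (26.3%), against 10.6% of the whole table and 6.93% of the other autosomal windows. Differences of 5 points or more upward were also commoner, 6.09% against 1.93% of the others.

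Single sparse windows were noisier as well. The median gap between replicates was 4.82 points in netrin-1 and 5.62 points in control cells, against 2.97 and 3.10 points in the other windows. The counting error alone put a median standard error of 3.38 points on the difference of a sparse window, against 1.36 points elsewhere, and the differences had an SD of 7.30 points, against 4.34. The wider tails on both sides and the greater noise occurred together, and the part of the noise in the tails was not tested.

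**Figure D2:**
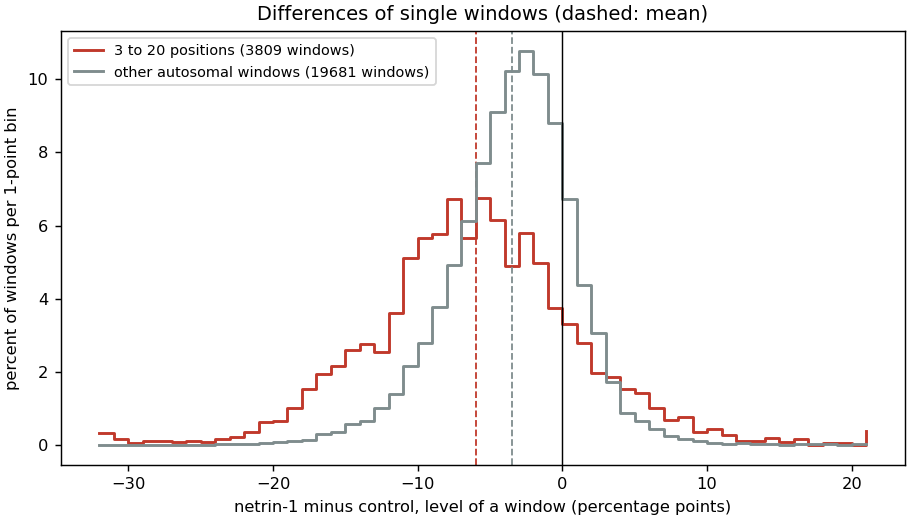
Share of windows in each 1-point bin of netrin-1 minus control (percentage points), for sparse windows (red) and other autosomal windows (grey), with the means dashed and windows beyond the axis in the outermost bins. The sparse distribution is wider on both sides, and its mean lies at -6.00 points, against -3.47 points.

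Levels were lower across the distribution. The 5th percentile of sparse windows was 11.7% in netrin-1 cells, against 16.7% in control cells, the median 31.1% against 37.9%, and the 95th percentile 57.2% against 60.7%. Levels under 20% were found in 18.5% of sparse windows in netrin-1 cells, against 7.25% in control cells, and levels over 50% in 10.2% against 16.7%. Sparse windows also differed more than other windows of the same level, the level being the mean of the 4 libraries. At 20 to 30% the difference was -7.05 points in sparse and -4.12 points in other windows. At 30 to 40% it was -6.90 and -3.99 points, at 40 to 50% -5.31 and -3.23 points, and at 50 to 60% -4.38 and -2.08 points. Between 0 and 80%, sparse windows had the greater difference in each of the 8 bins.

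Every autosome showed the same order. Sparse windows made up 11.2% of the eligible windows of chromosome 17 at the low end and 21.997% of those of chromosome 14 at the high end. Over the sparse windows the netrin-1 and control libraries did not overlap on 19 of 19 chromosomes. On 19 of 19 the difference was greater than in the other windows of that chromosome. All chromosomes were measured in the same 4 libraries, so they do not repeat the comparison. Taken over all autosomes, the groups did not overlap in the other windows either, with a gap of 2.15 points. Chromosome 14 had the smallest difference (-4.75 points) and chromosome 15 the greatest (-7.57 points). The 383 windows of the X chromosome in the same range of positions, which the selection left out, stood at 29.8% and 30.2% in netrin-1 libraries, against 34.9% and 37.0% in controls. Their difference of -5.95 points was close to that of the autosomes, and the denser X windows differed by -3.68 points. With each chromosome cut into 5 equal parts, sparse windows made up 16.4% to 18.3% of the eligible windows in the first 4 parts and 10.6% in the most distal one, with differences of -5.63 to -6.32 points.

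**Figure D3:**
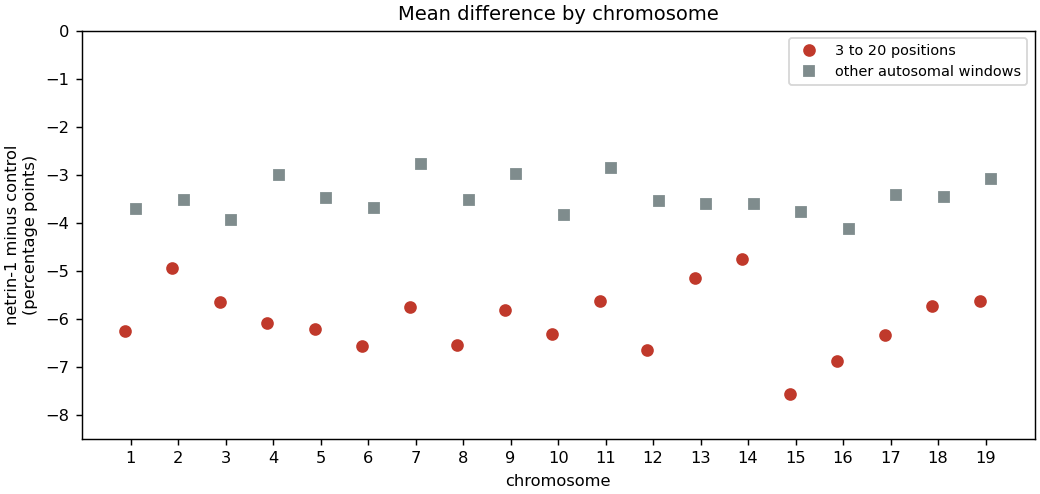
Mean of netrin-1 minus control (percentage points) on each autosome over sparse windows (red circles) and over the other windows (grey squares). The red symbols lie between -7.57 and -4.75 points, each below the grey one of its chromosome.

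Sparse windows were poor in genes and islands. A protein-coding gene overlapped 50.4% of them, against 67.5% of the other windows, a protein-coding start 23.9%, against 46.9%, and a listed CpG island 628 of them (16.5%), against 38.3%. The difference was present in each class. It was -5.58 points in sparse windows with a protein-coding gene and -6.43 points in those without. Sparse windows inside a gene body but without a start stood at 32.6% in netrin-1 cells, against 38.8% in control cells, a difference of -6.23 points, and those with a start at 34.4%, against 39.3%, a difference of -4.86 points. With an island it was -4.53 points and without one -6.29 points. Other windows without an island differed by -4.08 points, so island-free sparse windows were also further apart than island-free dense ones.

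The label of few covered positions holds only for the window table. Of 617 sparse windows that contain a whole island, 543 (88.0%) had islands that list more covered positions in the island table than the entire window does, in every library. The median was 70.5 island positions against 12.5 window positions. In the other windows this share was 46.5%. The window counts thus leave out part of the covered island positions, and which positions they kept was not tested. The features inside sparse windows showed smaller differences. The 778 islands there averaged 1.66% in netrin-1 cells, against 2.04% in control cells. Shores, the flanks next to islands, were at 6.08%, against 7.17% (847 features), and shelves, the next flanks outward, at 23.6%, against 26.0% (248 features). Promoters without an island, which had calls for 87 genes in sparse windows, were at 16.2% ± 0.399 in netrin-1 cells, against 19.3% ± 0.532 in control cells (SD, n = 2 each), a difference of -3.18 points. Gene bodies lying wholly in sparse windows, 376 with calls of 1213 listed, were at 20.5% ± 0.642, against 23.4% ± 0.924, a difference of -2.99 points. In each of these 5 classes both netrin-1 libraries lay below both controls, as they did in the same 5 classes of the other windows. Islands differed by -0.380 points in sparse and -0.353 points in other windows, and shores by -1.09 and -1.16 points. Shelves differed by -2.43 and -2.01 points. In the other windows, promoters without an island differed by -1.96 points and gene bodies by -1.88 points. Promoters of pluripotency genes were also looked up. Those of Pou5f1, Sox2 and Zfp42 were under 2.5% in every library, and that of Nanog had 0 calls. The Esrrb promoter was at 49.4% and 14.8% in netrin-1 replicates 1 and 2, against 51.7% and 9.43% in those of the controls. Its groups overlapped, and its level followed the replicate number. Island promoters in the other windows averaged 1.52% in netrin-1 and 1.70% in control cells, so a low level does not identify the cell type. None of these pluripotency genes lies in a sparse window, and methylation does not measure expression.

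Of the 3809 sparse windows, 2679 had enough information for a test of their own. The other 1130 had too few calls, or a level too near 0 or 100%, and are left out of the counts of calls. Their mean difference was -5.30 points, against -6.29 points for the tested ones. A limma-moderated quasi-binomial model with Benjamini-Hochberg adjustment over all 23743 tested windows of the table called 70 sparse windows at an adjusted p under 0.05, and all 70 fell in netrin-1 cells. This was 2.61% of the tested sparse windows, against a background of 2.22% called in the whole table in either direction and 2.2% called lower. The share called was therefore near the background, although the mean difference was greater. At an unadjusted p under 0.05, 684 sparse windows passed, 675 of them lower, on a background of 22.2%. The count of 70 rests on all 4 libraries. Leaving out netrin-1 replicate 1 gave 125 calls and leaving out netrin-1 replicate 2 gave 33. With control replicate 1 left out there were 18 calls, and with control replicate 2 left out there were 0. The model also made 0 calls when each library was centred on its own mean (337 windows at an unadjusted p under 0.05) and when each window's own dispersion was used (209).

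Among the 70 windows the least fall was -12.7 points and the greatest -30.4 points. The median difference was -17.8 points, against -13.4 points among the 440 called windows of the rest. Both medians cover only windows that passed the test. The least fall among called windows of the rest that fell was -7.37 points. How far the greater counting error of sparse windows adds to this contrast was not tested. The median level of the 70 windows was 22.5% in netrin-1 cells, against 42.4% in control cells. They held a median of 410 calls per library, against 258 in the tested sparse windows overall. They were spread over 18 chromosomes, and 6 of them adjoined another called window. A protein-coding gene overlapped 36 of them (51.4%), close to the 52.1% of all tested sparse windows. Most starts inside these windows that had calls were nearly unmethylated. Of 32 promoters listed there, 8 had at least 10 calls in each library. Of those, 7 were at or below 3.77% in all 4 libraries. The other was that of the microRNA gene Mir873a, at 7.69% and 15.5% in netrin-1 libraries, against 31.7% and 26.2% in controls. Among the 7, the Oxr1 promoter averaged 1.15% against 1.45%, and that of Lrfn5, a synaptic adhesion gene, 0.877% against 0.903%. All of the 7 except that of Gm16263 were island promoters. Island promoters of all sparse windows averaged 1.42% in netrin-1 and 1.64% in control cells, so such low levels are not particular to called windows.

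**Figure D4:**
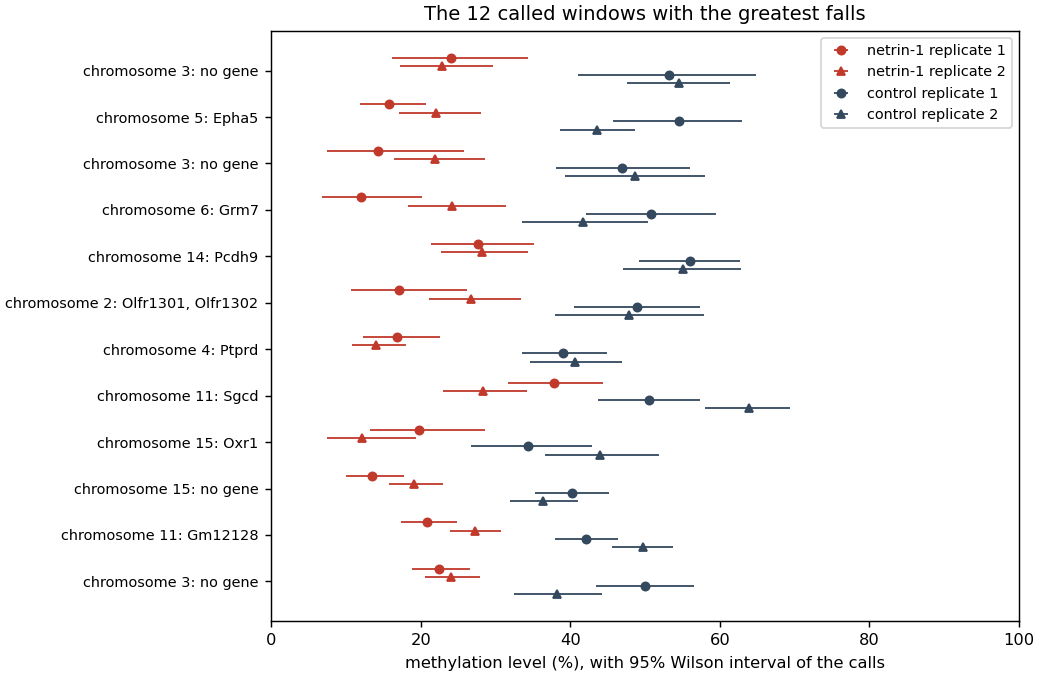
Methylation level (percent) of the 12 called sparse windows with the greatest falls, by library, with 95% Wilson intervals of the calls, which cover counting error only. The 12 were taken from called windows whose groups do not overlap, so netrin-1 libraries (red) lie to the left of both controls by selection. All 70 called sparse windows met that condition.

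The windows with the greatest falls are described by the genes they overlap. A window of Grm7, a metabotropic glutamate receptor gene (chr6:110800001-110900000, 4 positions), was at 11.96% and 24.2% in netrin-1 libraries, against 50.8% and 41.7% in controls. Its counting intervals were wide, for example 6.81% to 20.2% in netrin-1 replicate 1 on 92 calls. A window of Pcdh9, a protocadherin gene of cell adhesion (chr14:93400001-93500000, 14.5 positions), was at 27.7% and 28.2%, against 56.0% and 55.0%. Its replicates lay close together in both groups. A window of Ptprd, a receptor tyrosine phosphatase gene with a role at synapses (chr4:77700001-77800000, 17.75 positions), was at 16.8% and 14.0%, against 39.1% and 40.7%. Epha5, an ephrin receptor gene (chr5:84000001-84100000, 11.75 positions), was at 15.8% and 22.07% in its window, against 54.5% and 43.6%. The adjusted p-values of these 4 windows, from the limma-moderated model with Benjamini-Hochberg adjustment, were 0.0403, 0.0200, 0.0121 and 0.0125.

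Other genes among the 12 had other roles. The window of the olfactory receptor genes Olfr1301 and Olfr1302 (chr2:111700001-111800000) holds the Olfr1301 promoter. It was at 17.0% and 26.8% in netrin-1 libraries, against 48.9% and 47.8% in controls, with a limma-moderated Benjamini-Hochberg p of 0.0492. It had 8 and 12 covered positions in netrin-1 libraries, against 25 and 16 in controls, so the groups rest partly on different positions. The window of Sgcd, which encodes a sarcoglycan of the muscle membrane (chr11:47700001-47800000), was at 37.8% and 28.3%, against 50.5% and 63.8%. That of Oxr1, an oxidation resistance gene (chr15:41400001-41500000), was at 19.8% and 12.2%, against 34.4% and 44.0%. Both had replicates about 10 points apart in at least one group without an overlap between groups. Gm12128 (chr11:37600001-37700000) was at 20.9% and 27.2% in its window, against 42.1% and 49.7%. The remaining 4 overlapped no listed gene. On chromosome 3 they began at 120500001 (24.1% and 22.8%, against 53.1% and 54.5%), at 81700001 (14.3% and 21.9%, against 47.0% and 48.6%) and at 47900001 (22.4% and 24.0%, against 50% and 38.2%). On chromosome 15 the window from 28600001 was at 13.4% and 19.1%, against 40.2% and 36.3%. All 12 held between 56 and 651 calls per library.

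Scaled coverage was lower in netrin-1 cells in these windows, except in that from 47900001 on chromosome 3. Over all sparse windows the ratio was 0.956. The part of coverage in the falls was not tested. Scaled coverage in netrin-1 cells relative to controls was 0.640 in the Oxr1 window and 1.67 in the chromosome 3 window from 47900001, and between 0.772 and 0.996 in the other 10. Over all sparse windows with a ratio from 0.667 to 1.5, which were 3273 windows with 66 of the 70 calls, the mean level was 32.2% in netrin-1 cells, against 38.3% in control cells, a difference of -6.05 points. It was -6.05 points in the 327 windows below that range and -5.03 points in the 209 above it.

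No sparse window was called higher in netrin-1 cells, although 1 was with no information minimum (53 lower) and 1 with netrin-1 replicate 1 left out (124 lower). The 3 tested windows with the greatest upward difference and no overlap between groups were chosen after their values were seen. The one from 70100001 on chromosome 6 was at 49.0% and 37.0% in netrin-1 libraries, against 34.7% and 14.0% in controls. A window of Park2, the parkin ubiquitin ligase gene (chr17:11300001-11400000), was at 37.3% and 37.4%, against 23.6% and 17.6%. A window of Lrrc4c, which encodes a netrin-G ligand at synapses (chr2:96400001-96500000), was at 48.3% and 61.9%, against 35.7% and 41.4%. Their limma-moderated Benjamini-Hochberg p-values were 0.258, 0.0814 and 0.179.

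The ends of the range of levels differed little. Among sparse windows with at least 100 calls per library, the lowest mean level was that of a window of Pdia4, which encodes a protein disulfide isomerase (chr6:47700001-47800000), at 0% and 0.593% in netrin-1 libraries, against 2.41% and 1.44% in controls. The count of 0 of 189 calls allows a level of up to 1.59%. Next were windows of Zfp640 on chromosome 13, at 1.63% and 1.098%, against 1.73% and 0.925%, and of Gm13248 on chromosome 4, at 1.75% and 2.75%, against 4.21% and 0%. The highest was a window of Oog1, an oocyte gene of a multicopy family (chr12:87600001-87700000), at 96.7% and 95.8%, against 95.4% and 94.7%. It was followed by windows of Nrp1, a semaphorin and VEGF co-receptor gene, at 93.9% and 82.6%, against 91.1% and 96.1%, and of Fam110b, at 89.8% and 89.9%, against 93.0% and 89.9%. The groups overlapped in 4 of these 6 windows. They were apart in the Pdia4 window, which was lower, and in the Oog1 window, which was higher.

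A few sparse windows were very deep. The deepest, overlapping Nova1 on chromosome 12, had 16121 and 16246 calls in netrin-1 libraries and 16108 and 16153 in controls. A window of the pseudogene Vmn2r-ps130 on chromosome 17 had 16009 and 16002 calls in netrin-1 libraries and 16013 and 16002 in controls. These totals were nearly equal in libraries of unequal depth, and the cause was not tested. The Nova1 window was at 78.3% and 77.4% in netrin-1 cells, against 79.7% and 82.1% in control cells, and the Vmn2r-ps130 window at 51.0% and 50.9%, against 50.7% and 50.9%. In all, 9 sparse windows had over 200 calls per covered position in a library, and 41 of the others did.

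Genes of 11 families or roles were looked up in the sparse windows. The lists were drawn up with earlier results of these data known, and windows of the same gene share their source, so counts and medians are descriptions. Over all sparse windows the comparable values were a mean difference of -6.00 points, 82.5% of windows lower and 2.61% of tested windows called (2.22% in the whole table).

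**Figure D5:**
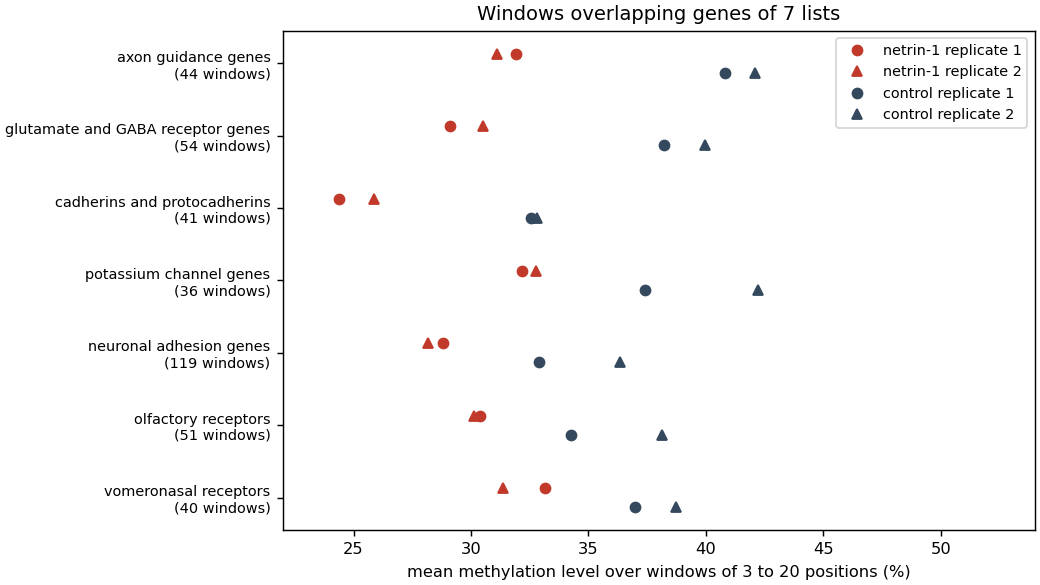
Mean methylation level (percent) in each library over the sparse windows that overlap genes of the 7 lists with at least 20 such windows. Netrin-1 libraries (red) lie to the left of controls in all 7, and the widest separation is that of axon guidance genes, 31.5% against 41.5%.

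Axon guidance genes, the class to which netrin and its receptors belong, lay far from the average. They overlapped 44 sparse windows, whose mean level was 31.9% and 31.1% in netrin-1 libraries, against 40.8% and 42.1% in controls, a difference of -9.95 points with a median of -9.15. The mean was lower in 44 of 44 windows and 19 of 19 genes. In 32 windows both netrin-1 libraries lay below both controls and in 0 above them, against 49.8% and 4.25% of sparse windows overall. Of the 38 tested, 2 were called, both in Epha5, against 2.61% of all tested sparse windows. The other autosomal windows of the list differed by -4.08 points. The netrin receptor genes were represented by 12 windows. The 6 of Dcc averaged 33.9% ± 2.34 in netrin-1 cells, against 40.2% ± 1.99 in control cells, the 4 of Unc5c 31.2% ± 2.85 against 40.9% ± 3.74, and the 1 of Unc5d 17.3% ± 0.103 against 24.9% ± 3.63 (SD, n = 2 each). The single window of Neo1, the neogenin gene, was at 14.7% and 23.2%, against 35.8% and 21.7%, and its groups overlapped. None of the 12 was called. The Dcc window with most calls (chr18:71300001-71400000) was at 43.8% and 39.1%, against 54.8% and 54.4%, with a limma-moderated Benjamini-Hochberg p of 0.0532.

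Among the other guidance genes the repellent ligand gene Slit2 had the second greatest difference, with its 2 windows averaging 24.4% and 21.6% in netrin-1 libraries, against 41.0% and 41.2% in controls. The 2 windows of the semaphorin gene Sema3d averaged 23.5% and 29.0%, against 44.6% and 41.6%. Robo2, a Slit receptor gene, had 3 windows at 24.8% ± 2.83 in netrin-1 cells, against 32.5% ± 1.52 in control cells (SD, n = 2 each). Sema6d, a transmembrane semaphorin gene, had 5 at 44.7% ± 2.17, against 53.7% ± 3.13. Neither Slit2, Sema3d, Robo2 nor Sema6d had a called window.

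Genes of glutamate and GABA receptors overlapped 54 sparse windows, at 29.1% and 30.5% in netrin-1 libraries, against 38.2% and 39.9% in controls. The difference was -9.28 points, with 49 windows lower, 38 with both netrin-1 libraries below both controls and 0 above. All 23 genes had a lower mean, and 5 of 42 tested windows were called, against 2.61% of all tested sparse windows. The called windows lay in Grm7 (2), Grm3, Gabrg3 and Grik2. Grin3a, an NMDA receptor subunit gene, had 1 window at 49.0% and 33.9% in netrin-1 libraries, against 60.2% and 64.4% in controls, which was not called. The other autosomal windows of this list differed by -3.23 points.

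Potassium channel genes overlapped 36 sparse windows, at 32.5% ± 0.429 in netrin-1 cells, against 39.8% ± 3.39 in control cells (SD, n = 2 each), a difference of -7.33 points with 29 lower and 3 of 30 called, against the same 2.61%. The 3 windows of Kcnh7, an Erg-type channel gene, averaged 24.4% and 20.3%, against 34.1% and 40.3%. Cadherins and protocadherins overlapped 41 windows, at 25.1% ± 1.05, against 32.7% ± 0.170, a difference of -7.56 points with 35 lower and 1 of 28 called, the Pcdh9 window. Pcdh17 went the other way, with 2 windows at 18.2% and 20.04%, against 14.0% and 17.9%, neither tested. Neuronal adhesion genes, among them neurexins and contactins, held the most windows, 119, or 3.12% of sparse windows against 0.884% of the others. They were at 28.5% ± 0.465, against 34.6% ± 2.43, a difference of -6.11 points, with 102 lower and 2 of 79 called. The other autosomal windows differed by -6.33 points in that list, by -3.83 points in the potassium channel list and by -4.13 points in the cadherin list.

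Sensory receptor clusters were near the average of sparse windows. Olfactory receptor genes overlapped 51 of them (1.34%, against 1.43% of the other windows), at 30.3% ± 0.209 in netrin-1 cells, against 36.2% ± 2.75 in control cells (SD, n = 2 each), a difference of -5.94 points with 44 lower and 2 of 35 called. Vomeronasal receptor genes, which encode pheromone receptors, overlapped 40, at 32.3% ± 1.27, against 37.9% ± 1.25, a difference of -5.60 points with 34 lower and 0 of 21 called. Weighted by calls the vomeronasal difference was -1.77 points. This list includes the very deep Vmn2r-ps130 window, with 16002 to 16013 calls per library and a difference of 0.175 points. The part of that window in the weighted value was not tested. Many olfactory and vomeronasal receptor genes are near-identical copies, so their calls may be divided between copies. The smaller lists were scattered. Klr lectin-like receptor genes of natural killer cells (6 windows) differed by -8.88 points and defensins, antimicrobial peptides (4 windows), by -8.60 points. Zinc finger genes (13 windows) differed by -4.42 points and cytochrome P450 genes (7 windows) by -1.24 points, both with overlapping groups. The median over the P450 windows was 1.69, opposite in sign to the mean. No window of these 4 lists was called.

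Of the 3809 sparse windows, 1928 had no sparse neighbour. Pearson's r of the difference between adjoining sparse windows was 0.082 over 1144 pairs, against 0.121 over 16872 pairs of other windows, given as a description because neighbours share libraries and sequence composition. The sparse windows formed 2665 runs, single windows included. The longest run (chr5:48600001-49500000, 9 windows) overlapped Kcnip4, which encodes a potassium channel interacting protein, and averaged 37.8% and 37.6% in netrin-1 libraries, against 41.7% and 45.6% in controls, with 7 of 9 windows lower. Runs of 8 windows at Ccser1 (chr6:62200001-63000000) and Pcdh17 (chr14:84400001-85200000) averaged 28.2% ± 6.15, against 32.2% ± 0.164, and 30.7% ± 3.01, against 33.2% ± 2.19 (SD, n = 2 each). The groups overlapped in both, and no window of the 3 runs was called.

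The neighbours of a window were also counted. The difference was -5.60 points in sparse windows with 0 sparse neighbours, -6.47 points with 1 and -6.16 points with 2. Other windows differed by -3.16, -4.49 and -5.02 points in the same order. Among other windows of 20 to 50 positions alone, the values were -4.33, -5.33 and -5.61 points, and those of 50 to 100 positions gave -3.13, -3.63 and -3.68 points. Above 100 positions they were -2.15, -1.97 and -3.29 points, the last over 19 windows.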

How the data were processed

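DNA methylation was measured by RRBS in 2 netrin-1 and 2 control libraries, grouped and numbered by their titles. FastQC and the builds mm10 and GRCm38 are listed in the submitters' processing notes. The sources used here name neither the aligner nor the caller, and give no site filter, duplicate handling or conversion rate. The authors deposited 3 tables, for 100 kb windows, CpG island features and genes. Per the file headers, their columns for a library are the count of covered positions, of total calls and of methylated calls, with the level as a fraction. Levels were recomputed from these counts as a percent and equalled the deposited fraction. Why the window table lacks some island positions is not stated.

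The windows and gene lists were chosen with earlier results of these data known. Means are unweighted over windows, with an exact two-sided permutation test over libraries. Single windows of the whole table were tested with a quasi-binomial logistic model, with dispersion moderated by limma 3.58.1 in R 4.3.3 (trend on coverage, robust, floor of 1). A window needed at least 10 calls in each library and a mean of at least 25 per library of calls × level × (1 - level), the level taken as a proportion. Benjamini-Hochberg adjustment ran over 23743 windows, with a threshold of 0.05. Named windows were up to 12 called windows without overlap between groups, taken by the greatest falls. Also named were the 3 highest and lowest levels, the 3 longest runs and the window with most genes of each list. Those nearest the limits of the range were named as well. Very deep windows and uncalled upward differences were added after the values were seen. Over sparse windows, the gap in level between replicates 1 and 2 did not go together in the 2 groups (correlation 0.011), so libraries were not paired. Coverage did follow the replicate number in places. The Zfp640 window had 22 and 17 covered positions in netrin-1 replicates 1 and 2, and 23 and 16 in those of the controls. Depth was lower in replicate 1 of both groups. Depth was 32770000 and 44642064 calls in netrin-1 libraries and 28004487 and 37394424 in controls. Calls from amplified reads are not independent molecules, so intervals (Wilson, 95%) and the limit for 0 methylated calls (3 calls of the total) cover counting error only. Genes were placed on windows by the coordinates of the deposited gene table, and promoter sequences came from RefSeq on GRCm38.p6, without chromosome 18.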

Additional observations from a re-analysis of the deposited data

How the results depend on the processing

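The mean difference of sparse windows, that of the other autosomal windows and the contrast between them kept their direction in each of the 13 alternatives run for each, at -7.18 to -4.81, -4.19 to -2.73 and -3.38 to -2.00 points. These alternatives were weighting by calls, medians, minimums of 30 and 100 calls, narrower ranges of positions, leaving out chromosomes 3, 6, 13 and 15, each library left out in turn and, chosen after seeing the data, windows without an island and without the deepest windows. Leaving out a library gave -7.18 to -4.81, -4.19 to -2.75 and -3.05 to -2.00 points. The count of 70 called windows depended on the processing. It was 54 (1 of them higher) with no information minimum and 41 (1 higher) with neither that minimum nor the robust step. It was 0 without trend and robust step (423 at an unadjusted p under 0.05) and 0 with each window's own dispersion (209 unadjusted). limma on percentage points gave 24 and on M values 24. It was 0 after centring each library, which removes the shared difference (337 unadjusted, 296 lower). With the replicate number as a block it was 171, holding all 70, although levels of sparse windows did not deviate together by that number. In the range of 3 to 10 positions it was 12, a range with fewer windows tested (541). Without chromosomes 3, 6, 13 and 15 it was 50. Leaving out a library gave 0 to 125 (1 higher among the 125), with 334 at an unadjusted p under 0.05 where the count was 0. In these fits the lone library of a group is assumed to vary like the other group's. The cause of the other changes was not tested. None of the 12 named windows reversed in direction in the alternatives run, and their adjusted p ranged over 0.0006 to 0.527. In the quasi-binomial model with no information minimum, those of Grm7, Olfr1301 and Oxr1 were no longer called. Their adjusted p-values in that model were 0.0524, 0.0626 and 0.0594, while the others among the 12 stayed under 0.05. The mean of the cytochrome P450 list changed sign in 4 of 13 alternatives, and the other lists with enough windows stayed negative in all of theirs. Depth and levels near 0 or 100% limit single sparse windows, of which 1130 were not tested.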

Other observations

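The sparse windows holding most genes of each remaining list gave the following levels. The window of the olfactory receptor genes Olfr610 to Olfr618 on chromosome 7 was at 18.2% and 20% in netrin-1 libraries, against 6.25% and 60.0% in controls, on 22 to 65 calls. The window of 5 vomeronasal genes, Vmn1r216 to Vmn1r220 on chromosome 13, was at 34.3% and 35.4%, against 38.5% and 43.1%. A zinc finger cluster window on chromosome 13 (Zfp429 and neighbours) was at 10.1% and 9.35%, against 20.8% and 28.8%. The defensin window (Defa2) was at 30.6% and 28.8%, against 44.8% and 31.1%, and the Klrc1 window at 14.8% and 16.1%, against 22.8% and 28.1%. The Cyp2c37 window was at 55.5% and 64.5%, against 64.4% and 61.7%. The window of the protocadherin alpha genes on chromosome 18 was at 16.7% and 48.6% in netrin-1 libraries, against 40.7% and 33.3% in controls, on 18 to 102 calls. The window of Lrrtm4, a synaptic adhesion gene, had 3412 to 5185 calls per library and was at 39.4% and 40.0%, against 42.3% and 42.7%. The window shared by the GABA receptor genes Gabra4 and Gabrb1 was at 37.1% and 39.6%, against 40.7% and 46.6%. The window of Kcnd2, a potassium channel gene, was at 14.0% and 15.8%, against 21.5% and 32.9%. None of these windows was called, some held too little information for a test, and the groups overlapped in the olfactory, cytochrome P450 and protocadherin windows.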
